A study of Mus musculus with 2 samples.

Results

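Single-cell RNA-seq libraries were made from cells of mouse femur and its surrounding muscle, sorted for a Clec3b-lineage label. The cells described here are Thbs4/Cilp fibroblasts, 85 of the 4502 cells that passed the cell filter in a pair of such libraries. They were chosen on measured values: a cell had to hold at least 500 detected genes, at most 10% mitochondrial transcripts, no Ptprc (the leukocyte gene for CD45), transcripts of at least 3 of the 6 stromal genes Pdgfra, Clec3b, Dcn, Lum, Dpt and Col3a1, less than 0.5% of its transcripts from the osteoblast gene Bglap, and at least 5 unique molecular identifiers (UMIs, each counted as 1 transcript molecule) of Thbs4 and Cilp together. The intact library held 24 such cells and the fracture callus library held 61. The 263 intact and 169 callus cells that met every condition except the last are called other stromal cells below.

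Clec3b.creERT2; Ai14.R26.tdTomato littermates labelled male were given tamoxifen 2 weeks before a stabilized femoral fracture on the right leg at 6 weeks of age. Both legs were collected 3 weeks after surgery. Cre was driven from the endogenous Clec3b locus, so that tdTomato marked cells with Clec3b activity at the time of tamoxifen, and their progeny. Intact femoral diaphyses with muscle from the uninjured limbs of 3 mice were pooled into 1 specimen, the calluses of the same 3 mice into another, and tdTomato-positive cells were sorted from each and sequenced with a 3′ droplet kit. There was therefore 1 library per condition, no comparison below has a replicate check, and no p-value is given; both libraries came from treated, operated mice. The intervals given are exact 95% intervals and cover counting error only.

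Thrombospondin 4 (Thbs4) and cartilage intermediate layer protein (Cilp) are secreted proteins of load-bearing connective tissue, found in tendon, ligament, cartilage and the connective tissue of muscle. Fibroblasts of this kind deposit and organize collagen, and their matrix holds small leucine-rich proteoglycans such as fibromodulin (Fmod) and biglycan (Bgn), which bind collagen fibrils. Tenocytes, the resident cells of tendon, are marked by the transcription factors Scx and Mkx and the membrane protein tenomodulin (Tnmd), while Pi16 and Col15a1 mark a pair of fibroblast states that are found across many tissues.

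The intact library held 1872 barcodes with 12112002 UMIs (median 5959 per barcode) and the callus library held 3987 barcodes with 36714322 UMIs (median 6217). Of these, 1207 intact and 3295 callus cells passed the filter. The Thbs4/Cilp fibroblasts held a median of 7917 UMIs in the intact library (range 3168 to 10323) and 8974 in the callus (range 2315 to 22334), and the other stromal cells held medians of 7364 and 7837. The libraries shared 1 barcode, which was not among the stromal cells. Although the mice are labelled male, Xist, which female cells transcribe from the inactive X chromosome, had UMIs in 24 of 24 intact and 60 of 61 callus Thbs4/Cilp fibroblasts, and the Y-linked genes Ddx3y, Uty, Kdm5d and Eif2s3y had none in either library. A doublet caller marked 3 intact and 4 callus cells in all and no Thbs4/Cilp fibroblast, too few for doublets to count as removed.

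Among the stromal cells, Thbs4/Cilp fibroblasts made up 8.36% in the intact library (24 of 287 cells, interval 5.43% to 12.2%) and 26.5% in the callus (61 of 230, 20.9% to 32.7%). The intervals of these shares did not overlap. As a share of all filtered cells, most of which held Ptprc UMIs, they made up 1.99% (interval 1.28% to 2.94%) and 1.85% (1.42% to 2.37%), and those intervals overlapped. The paper regards the haematopoietic and endothelial cells of its data as sorting artifacts, because they lacked meaningful tdTomato expression. Within the stromal cells, the shares lay closer together in settings that held depth level but also changed the threshold. With a threshold of 500 Thbs4 and Cilp UMIs per 1000000 UMIs of the cell, the shares were 11.1% and 27.8%, and with every cell thinned to 2000 UMIs and a threshold of 2 UMIs they were 11.0% (29 of 263 cells) and 25.5% (55 of 216). The thinning left out 24 intact and 14 callus cells, none of them Thbs4/Cilp fibroblasts. With a threshold of 3 UMIs and depth not levelled, 33 of 287 intact and 70 of 230 callus cells met the rule. The part of depth alone was not tested. With 1 sort per condition, a difference in dissection or sorting and a difference between the tissues cannot be told apart.

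The rule itself set the levels of Thbs4 and Cilp, which are given as a description. Thbs4 and Cilp together had a lowest value of 6, a median of 11 and a highest value of 44 UMIs per intact cell, and 5, 29 and 193 per callus cell. Levels of single genes below are normalized UMI counts (CPM), the gene's UMIs summed over a group of cells per 1000000 UMIs of that group. Thbs4 stood at 482 CPM in the intact cells (interval 387 to 592) and at 2229 CPM in the callus cells (2111 to 2352), and Cilp at 1611 (1434 to 1804) and 2093 (1978 to 2212). Both genes were detected in 13 of 24 intact cells and 53 of 61 callus cells, Cilp without Thbs4 in 11 and 6, and Thbs4 without Cilp in 0 and 2. The intact cells were thus entered through Cilp, which all 24 of them held, more than through Thbs4. At the edge of the rule, the cells with 5 to 6 UMIs of both genes (2 intact, 9 callus) had Mgp at 1347 and 1328 CPM, and the cells just outside with 3 to 4 UMIs (9 and 9) had 573 and 993 CPM, while all remaining stromal cells stood at 109 and 174 CPM.

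Matrix Gla protein (Mgp), an inhibitor of mineralization, was carried by nearly all Thbs4/Cilp fibroblasts, whereas Sfrp4 and Fmod were carried by some of them. Mgp had UMIs in 20 of 24 intact cells (lowest 0, median 7.5, highest 46 UMIs per cell) and in 59 of 61 callus cells (0, 18 and 218). Its level was 1349 CPM in the intact cells against 122 CPM in the other stromal cells (11.0-fold), and 3128 against 236 CPM in the callus (13.3-fold). The high and low cells of both groups overlapped, because 4 intact and 2 callus Thbs4/Cilp fibroblasts had no Mgp and some other stromal cells had it. In B-lineage cells, which should lack the gene, the share with an Mgp UMI was 0.510% in the intact and 0.731% in the callus library (median depths 3041 and 3844 UMIs).

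Sfrp4, a secreted Wnt antagonist, had UMIs in 7 of 24 intact cells (highest 60, median 0) and 46 of 61 callus cells (highest 96, median 4). Its level was 803 CPM against 199 CPM in other stromal cells of the intact library and 1922 against 548 CPM in the callus. The other stromal cells also carried it widely, in 124 of 263 and 112 of 169 cells, and 1 intact Thbs4/Cilp fibroblast held 40.0% of that group's Sfrp4 UMIs. Fmod was carried by fewer cells, 5 of 24 in the intact library and 22 of 61 in the callus, at 455 and 637 CPM. No other stromal cell of the intact library held an Fmod UMI, which makes the level at least 281-fold higher against a floor of 3 counts over the group, and in the callus 3 of 169 did, at 19.1 CPM. Of the 24 intact cells 4 held UMIs of all of Mgp, Sfrp4 and Fmod, 3 held UMIs of a pair, 14 of 1 and 3 of none, and of the 61 callus cells 18 held all, 31 a pair, 11 held 1 and 1 held none. In the genome build of the files (mm10), Thbs4 lies on chromosome 13 from 92751590 to 92794818, Cilp on chromosome 9 from 65265180 to 65280605, Mgp on chromosome 6 from 136872435 to 136875823, Sfrp4 on chromosome 13 from 19623104 to 19632994 and Fmod on chromosome 1 from 134037254 to 134048277.

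**Figure D1:**
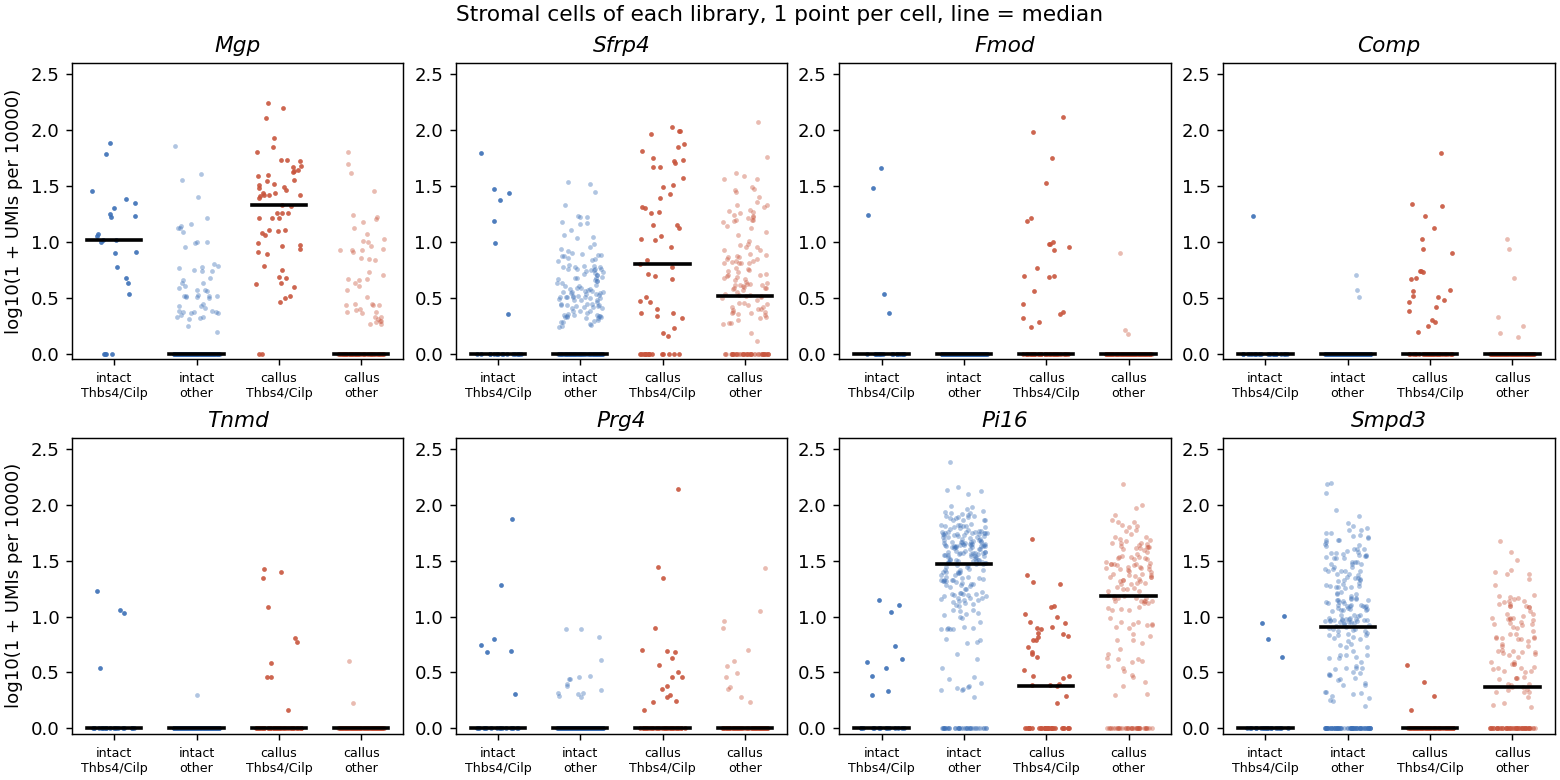
Expression of 8 genes in each stromal cell of the intact (blue) and callus (red) libraries, as log10 of 1 plus UMIs per 10000 UMIs of the cell, with Thbs4/Cilp fibroblasts beside the other stromal cells of the same library and a black line at each median. Mgp was present in most Thbs4/Cilp fibroblasts of both libraries, Fmod and Tnmd in a minority, and Smpd3 mainly in the other stromal cells. Pi16 was also present in many Thbs4/Cilp fibroblasts, at a lower level than in the other stromal cells.

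Transcripts of the tenocyte genes Scx, Tnmd and Mkx were found in a minority of the cells. A UMI of Scx, Tnmd or Mkx was present in 4 of 24 intact cells (16.7%, interval 4.74% to 37.4%) and 14 of 61 callus cells (23.0%, 13.2% to 35.5%), against 2 of 263 and 7 of 169 other stromal cells. After thinning to 2000 UMIs it was present in 4 of 24 intact (16.7%, 4.74% to 37.4%) and 7 of 61 callus cells (11.5%, 4.74% to 22.2%). The other stromal cells had 1 of 239 and 3 of 155. The intervals of the libraries overlapped both before and after thinning, so these shares give no order of the libraries. Tnmd had UMIs in 4 intact cells (33 UMIs, highest cell 15) and 10 callus cells (97 UMIs, highest cell 31), at 177 and 163 CPM. Scx had UMIs in 2 and 6 cells, and Mkx in 0 and 3. Fmod went with these genes: it was detected in 3 of the 4 intact cells with Scx, Tnmd or Mkx and in 2 of the 20 without, and in 12 of the 14 callus cells with them and 10 of the 47 without. Cartilage oligomeric matrix protein (Comp), which binds collagen in tendon and cartilage, was detected in 1 intact cell and 25 callus cells, at 80.3 and 366 CPM, and keratocan (Kera), a proteoglycan of cornea and tendon, in 0 and 3 cells. Lubricin (Prg4), a lubricant of joint surfaces and tendon sheaths, was detected in 7 and 19 cells, but 1 cell held 63.6% of its intact UMIs and 1 cell 61.3% of its callus UMIs. The tendon sheath and synovial list, to which it belongs, summed to 2457 CPM against 3973 CPM in the other stromal cells of the intact library and to 2849 against 3131 CPM in the callus. S100a10 led this list, with 215 of 459 UMIs in intact and 755 of 1699 in callus Thbs4/Cilp fibroblasts. In the other stromal cells it held 2835 of 7373 and 1614 of 4259. S100a10 also led the list in B-lineage cells, so the sums are no measure of tendon sheath genes alone. The tenocyte list of 12 genes summed to 846 CPM against 108 CPM in the other stromal cells of the intact library and to 1318 against 394 CPM in the callus. Its leading gene in Thbs4/Cilp fibroblasts was Fibin in the intact library (62 of 158 UMIs) and Comp in the callus (218 of 786). In the other stromal cells Ptgis (138 of 201) and Col11a1 (231 of 536) led. As most cells held no Scx, Tnmd or Mkx UMI, the cells are called here by the genes of the rule.

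Of the markers of other skeletal cells, some were at 0 and others were not. The cartilage genes Acan and Col2a1 and the osteoblast genes Sp7 and Ibsp had no UMI in the Thbs4/Cilp fibroblasts of either library, and neither had the marrow stromal and adipocyte gene Adipoq. The other stromal cells of the intact library had no UMI of these genes either, while those of the callus had UMIs of each. Sox9 of the cartilage list, Runx2 and Alpl of the osteoblast list and Lepr of the marrow stromal list had UMIs in the Thbs4/Cilp fibroblasts of both libraries. Spp1, an osteoblast matrix protein, had 0 UMIs in the intact and 48 in the callus Thbs4/Cilp fibroblasts (80.5 CPM), of which 1 cell held 97.9%, against 8892 CPM in the other stromal cells of the callus. Bglap had 1 UMI in each library, and Bglap2 and Dmp1 had 1 each in the callus. Of the osteoblast list, Spp1 and Col1a1 of 4 tested genes were at least 2-fold higher and Smpd3 lower in callus than in intact Thbs4/Cilp fibroblasts, where 10.7% of all genes tested were higher and 6.30% lower. The chemokine gene Cxcl12, the most abundant of the marrow stromal list, stood at 85.7 and 119 CPM, with 56.3% of its callus UMIs in 1 cell. The marrow stromal list summed to 2209 CPM in the other stromal cells of the callus against 267 CPM in the callus Thbs4/Cilp fibroblasts, and to 227 against 278 CPM in the intact library. A cartilage-matrix protein that tendon also makes, Chad, was the leading gene of the cartilage list in the callus cells with 30 UMIs, and 2 cells held them. In the intact Thbs4/Cilp fibroblasts Cnmd led that list, with 7 of its 9 UMIs.

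**Figure D2:**
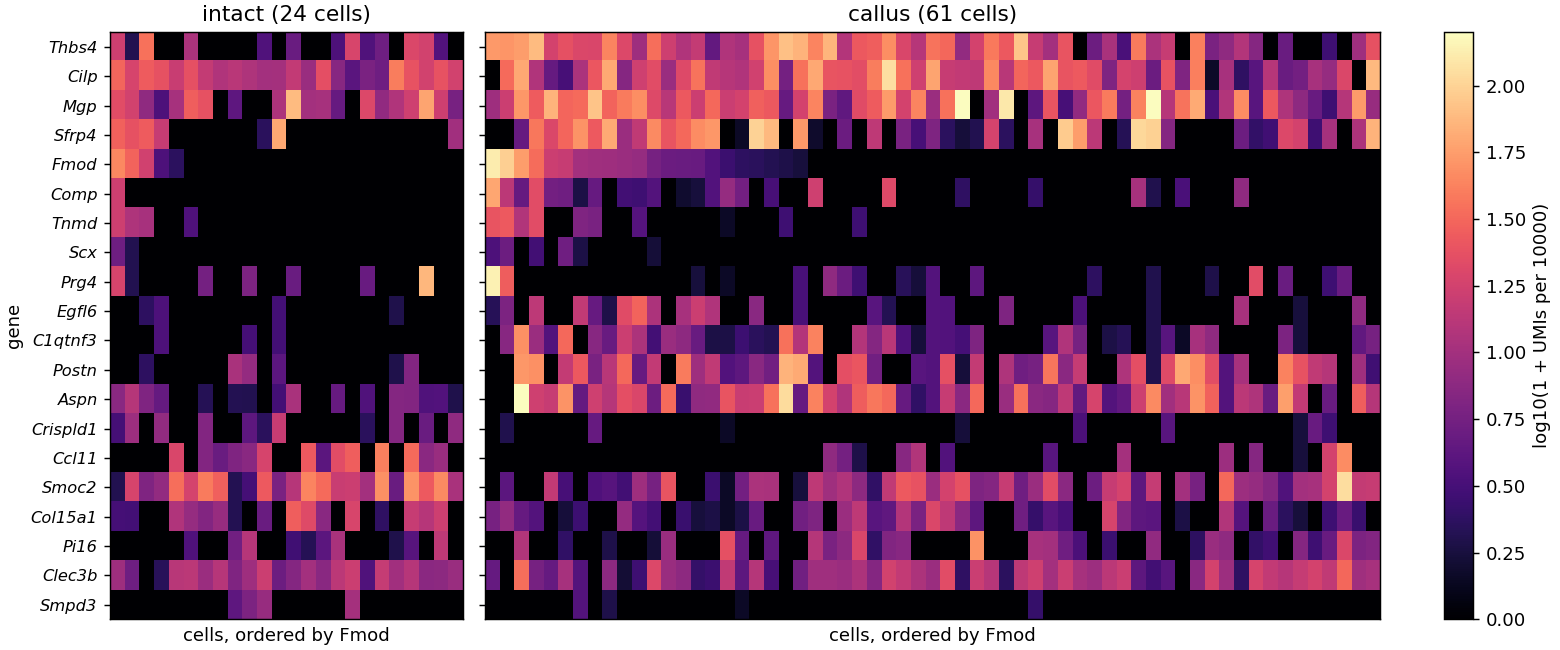
Expression in each of the 24 intact (left) and 61 callus (right) Thbs4/Cilp fibroblasts, 1 column per cell ordered by Fmod and 1 row per gene, as log10 of 1 plus UMIs per 10000 UMIs of the cell. Tnmd and Scx lie mainly in the columns with Fmod, Mgp and Aspn run across most callus cells, and Ccl11 and Crispld1 are found in more of the intact columns.

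Against the other stromal cells of the same library, 127 of 7993 genes tested (1.59%) were at least 2-fold higher in Thbs4/Cilp fibroblasts in both libraries and 248 (3.10%) were at least 2-fold lower in both. A gene was tested when both groups together held 20 or more of its UMIs in each library. A gene could pass this minimum through the group where it was high, so that counts over the tested genes of a list are descriptions. The median log2 ratio over all of these genes was −0.04 in the intact library and −0.09 in the callus. The genes named are those with the highest and lowest mean ratios among well-detected genes. The 15 named on the higher side were led by Mgp.

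The matrix genes among them were Bgn, Lox, Sparcl1, Tgfbi, Hmcn2, Ccn2, Col8a1 and Thbs2. Bgn, the leucine-rich proteoglycan named above, had UMIs in 23 of 24 intact cells (median 6.5 per cell) and in all 61 callus cells (median 14), at 1097 against 99.2 CPM in the intact library (11.1-fold) and 1895 against 433 CPM in the callus (4.38-fold). Lysyl oxidase (Lox), which starts the crosslinking of collagen and elastin, stood at 498 against 35.0 CPM and at 545 against 146 CPM, and its callus ratio of 3.73 was 1.52 with no limit on Bglap. The matricellular protein hevin (Sparcl1) stood at 782 against 126 CPM and 741 against 110 CPM, and Tgfbi, a cell-adhesion protein of the matrix, at 642 against 73.8 CPM and 475 against 112 CPM. Hemicentin 2 (Hmcn2), a large matrix protein, differed to a similar degree in the libraries, 6.07-fold and 5.95-fold. The type VIII collagen gene Col8a1 was 9.17-fold higher in the intact library, where it had 24 UMIs in the Thbs4/Cilp fibroblasts, and 2.95-fold higher in the callus, where it had 417. Connective tissue growth factor (Ccn2) was 11.4-fold and 2.45-fold higher, the latter between 1.47 and 8.62 across settings, and thrombospondin 2 (Thbs2) was 3.38-fold and 4.10-fold higher.

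Of the others on the higher side, Angptl1, a secreted angiopoietin-like protein, was detected in 24 of 24 cells of the intact and 60 of 61 of the callus library, at 969 against 324 CPM and at 2370 against 183 CPM, so that its ratio was 2.99 in the intact library and 12.9 in the callus. Gas1, a surface co-receptor for hedgehog ligands, was detected in 23 of 24 and 60 of 61 cells and stood at 1820 against 311 CPM and 1803 against 471 CPM. Gas6, a ligand of the TAM receptor kinases, was 9.93-fold and 2.11-fold higher, the latter at 1.95 from 10 Thbs4 and Cilp UMIs, and Pdgfrl, a PDGF receptor-like protein, 9.57-fold and 9.84-fold. Fibin, a secreted protein known from limb and fin buds, was 19.2-fold and 4.81-fold higher, and Dhrs3, which reduces retinaldehyde to retinol, 11.1-fold and 4.16-fold. The ratio was smaller in the callus for 10 of the 15 genes (Fibin, Lox, Bgn, Dhrs3, Tgfbi, Ccn2, Col8a1, Gas1, Gas6 and, by little, Hmcn2). For those other than Hmcn2 the callus over intact ratio was between 1.51 (Tgfbi and Gas1) and 16.9 (Col8a1) in the other stromal cells and between 0.739 (Tgfbi) and 5.44 (Col8a1) in the Thbs4/Cilp fibroblasts. The make-up of the other stromal cells differed between the libraries. Neither Pi16 nor Col15a1 was found in 8 of 263 intact and 25 of 169 callus cells. Spp1 stood there at 0 and 8892 CPM and Cxcl12 at 81.9 and 1347 CPM. The paper found its marrow stromal and osteoblast clusters in the callus only. The part of this make-up in the ratios was not tested.

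**Figure D3:**
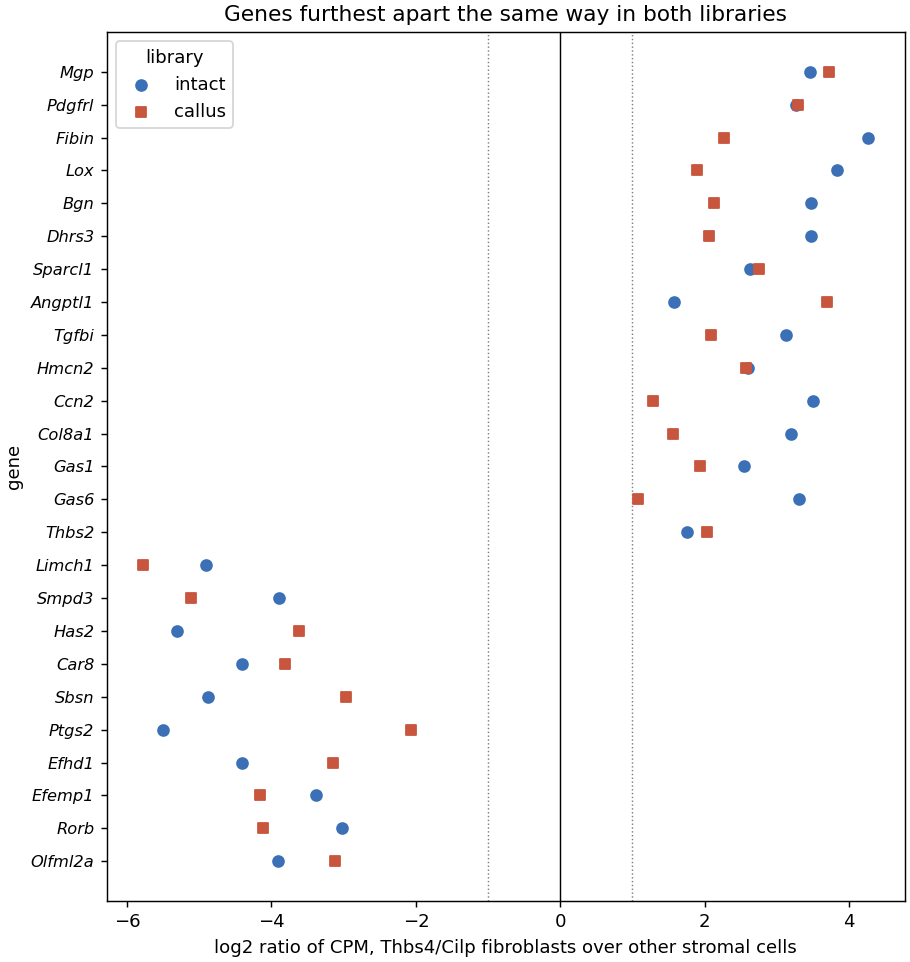
Log2 ratio of CPM in Thbs4/Cilp fibroblasts over other stromal cells for the 25 named genes, in the intact (circles) and callus (squares) libraries, with dotted lines at 2-fold. Sparcl1 and Hmcn2 had nearly the same ratio in both libraries, and Angptl1 had ratios of 2.99 in the intact library and 12.9 in the callus.

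Among the 10 genes named on the lower side, Smpd3, a neutral sphingomyelinase that releases ceramide, had UMIs in 4 of 24 intact cells and in 4 of 61 from the callus, at 91.0 against 1356 CPM and 10.1 against 350 CPM, and was 14.9-fold and 34.8-fold higher in the other stromal cells. Fibulin 3 (Efemp1), a matrix glycoprotein, stood at 80.3 against 839 CPM and 40.2 against 718 CPM, and single cells held 66.7% and 75.0% of those UMIs in the Thbs4/Cilp fibroblasts. Limch1, an actomyosin regulator, had 1 and 3 UMIs against 299 and 375 in the other stromal cells, and Car8, a carbonic anhydrase-related protein, 1 and 3 against 210 and 96. Hyaluronan synthase 2 (Has2) had 1 and 6 UMIs against 395 and 169. Cyclooxygenase 2 (Ptgs2), which starts prostaglandin synthesis, was at 10.7 against 487 CPM in the intact library and at 65.4 against 275 CPM in the callus. Its callus ratio of 0.238 was 0.545, under 2-fold, with 3 or more Thbs4 and Cilp UMIs. Sbsn, Efhd1, the nuclear receptor gene Rorb and Olfml2a were lower in both libraries, with Rorb at 0 and 2 UMIs in the Thbs4/Cilp fibroblasts against 242 and 79. Clec3b, the gene of the lineage allele and part of the stromal rule, was detected in 23 of 24 and 57 of 61 cells, at 803 against 1536 CPM and 812 against 1271 CPM.

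Most of the other stromal cells were of the Pi16 type, here cells with at least 2 Pi16 UMIs and no Col15a1 (204 intact, 112 callus), and a smaller number were of the Col15a1 type, with at least 2 Col15a1 UMIs and no Pi16 (28 and 11). Against both types at once and in both libraries, 35 of 3106 genes tested (1.13%) were at least 2-fold higher in Thbs4/Cilp fibroblasts and 4 (0.129%) were at least 2-fold lower. The higher genes included Mgp, Sfrp4, Fmod, Tnmd, Fibin, Bgn, Lox, Col8a1, Col12a1, Mfap4, Ltbp3, Thbs2, Ccn2, Ccn5, Tgfbi, Sfrp1 and Gas6, and the lower genes, named after their values were seen, were Bmp2, a bone morphogenetic protein, Vegfa, an endothelial growth factor, the chemokine gene Cxcl10 and Errfi1, a feedback inhibitor of EGF receptor signalling. Errfi1 stood at 123 CPM in intact Thbs4/Cilp fibroblasts against 788 CPM in Pi16-type and 314 CPM in Col15a1-type cells, and at 80.5 against 630 and 345 CPM in the callus. Mfap4, a protein of elastic microfibrils, was at 369 CPM in intact Thbs4/Cilp fibroblasts against 1.37 CPM in Pi16-type and 14.3 CPM in Col15a1-type cells, and at 609 against 21.9 and 167 CPM in the callus. Bmp2 was at 53.5 against 221 and 124 CPM in the intact library and at 16.8 against 139 and 376 CPM in the callus. Sfrp4 was shared with the Pi16 type (247 and 520 CPM) and was near 0 in the Col15a1 type, with 1 UMI in each library. Mgp, Angptl1, Sparcl1 and Hmcn2 were in contrast closer to the Col15a1 type, where Mgp stood at 371 and 981 CPM against 51.3 and 64.6 CPM in the Pi16 type.

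The gene lists for the fibroblast states gave the same split. Of 16 Pi16-type genes tested against the other stromal cells, none was higher in both libraries and 13 were lower, beside 1.59% and 3.10% over all genes tested, with medians of −2.63 and −1.73 on the log2 scale. Dpp4, a surface peptidase of this state, stood at 96.4 against 414 CPM and 80.5 against 309 CPM, and the guidance factor gene Sema3c at 155 against 1216 CPM and 300 against 1066 CPM. Of 14 Col15a1-type genes, 5 were higher (Col15a1, Smoc2, Penk, Podn, Sparcl1) and none lower, beside the same 1.59% and 3.10%, with medians of 1.60 and 0.20. These lists were drawn up for states that most other stromal cells carry, so their counts describe that contrast. Against the Col15a1 type itself, the Col15a1-type list had medians of −0.67 in the intact library and −1.79 in the callus. Against the Pi16 type its medians were 3.27 and 1.88, and none of its 11 genes tested against both types was called. Cell by cell, at least 1 UMI of Pi16 was found alone in 3 intact and 10 callus cells, Col15a1 alone in 9 and 21, both in 7 and 23, and neither in 5 and 7. Among the other stromal cells, both were found together in 16 of 263 intact and 16 of 169 callus cells. Among B-lineage cells the share with a Pi16 UMI was 5.10% in the intact and 5.30% in the callus library, under its share of the Thbs4/Cilp fibroblasts (10 of 24 and 33 of 61). After thinning to 2000 UMIs, both genes were seen together in 5 of 24 intact and 10 of 61 callus Thbs4/Cilp fibroblasts, and in 5 of 239 and 9 of 155 other stromal cells. From 2 UMIs of each gene, the threshold of the Pi16 and Col15a1 types, only 2 of 24 intact and 10 of 61 callus Thbs4/Cilp fibroblasts held both, while 3 and 17 held Pi16 alone, 12 and 19 Col15a1 alone and 7 and 15 neither.

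**Figure D4:**
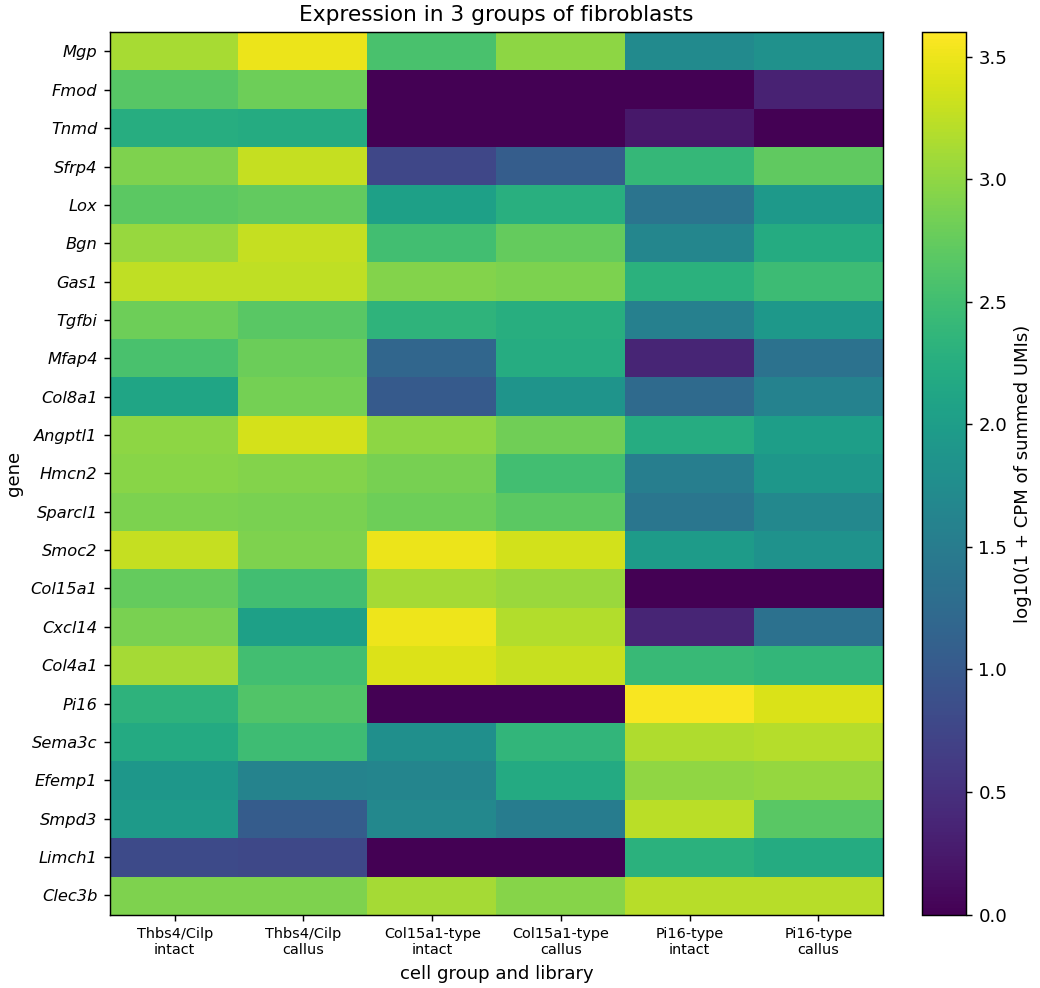
Expression of 23 genes in Thbs4/Cilp fibroblasts, Col15a1-type and Pi16-type cells of each library, as log10 of 1 plus CPM of the summed UMIs; Pi16 and Col15a1 defined the last 2 groups. Mgp, Fmod, Tnmd, Lox, Bgn and Mfap4 were highest in the Thbs4/Cilp columns of both libraries, Smoc2, Cxcl14 and Col4a1 in the Col15a1-type columns and Efemp1, Smpd3 and Sema3c in the Pi16-type columns.

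By function, and beside 1.59% higher and 3.10% lower over all genes tested, the small leucine-rich proteoglycans had 5 of 10 tested genes higher in both libraries (Fmod, Bgn, Prelp, Ecm2, Podn) and none lower, with medians of 1.18 and 1.27. The matricellular proteins had 7 of 17 higher (Thbs1, Thbs2, Comp, Sparcl1, Ccn2, Smoc2, Tgfbi) and none lower. Of the fibrillar and associated collagens only Col8a1 of 14 was higher in both libraries; Col1a1 was 1.34-fold and 1.32-fold higher. Mfap4, Ltbp3 and Ltbp4 of 15 elastic-fibre genes were higher and Fbn1, Efemp1 and Emilin2 lower. Of 12 genes of the insulin-like growth factor axis, Igf1, Igf2, Igfbp3 and Igfbp7 were higher and Igfbp5 lower. Igf1, a growth factor for muscle and tendon, was detected in 23 of 24 intact cells and all 61 from the callus, at 798 against 292 CPM and 1825 against 410 CPM. Igfbp3 was 14.0-fold and 4.36-fold higher. Of 5 Wnt antagonists tested, Sfrp1 and Sfrp4 were higher; Sfrp1 stood at 182 against 17.2 CPM and 280 against 61.0 CPM. Among 27 BMP and TGF-beta genes, Inhba was higher and Tgfb2, Bmp2, Bmp6 and Bmp7 lower. Against both fibroblast types at once, 1.13% of all genes tested were higher and 0.129% lower. There, Fmod and Bgn of 9 leucine-rich proteoglycans were higher, and no gene of 10 in the growth factor axis was called. Thbs2, Ccn2, Ccn5 and Tgfbi of 14 matricellular genes and Sfrp1 and Sfrp4 of 4 Wnt antagonists were higher. So were Mfap4 and Ltbp3 of 15 elastic-fibre genes and Col8a1 and Col12a1 of 14 collagens. Of 14 BMP and TGF-beta genes, only Bmp2 was lower.

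Of 23 tested genes of chemokines and inflammation, 7 were lower in Thbs4/Cilp fibroblasts in both libraries (Ccl2, Cxcl2, Cxcl10, Cxcl13, Il6, Ptx3, Ptgs2), 16 did not pass and none was higher, beside 3.10% lower over all genes tested, with medians of −1.17 and −1.55. Ptgs2 was under 2-fold in the callus with 3 or more Thbs4 and Cilp UMIs. Against both fibroblast types at once, only Cxcl10 of 14 was lower, beside 0.129% of all genes tested. The monocyte chemokine gene Ccl2 had 3 UMIs in the intact and 0 in the callus Thbs4/Cilp fibroblasts, against 562 and 116 in the other stromal cells, and the interval of the 0 UMIs in 61 cells reaches 6.19 CPM. Il6 had 1 and 30 UMIs against 266 and 211. The immediate-early and dissociation genes, which respond to tissue digestion, had none of 32 higher and 2 lower (Hspa1b, Mt2), with medians of −0.14 and 0.19. Among skeletal transcription factors, Prrx2, Meox1 and Meox2 of 24 were higher and Sox5 and Mef2c lower. Over all genes tested, 1.59% were higher and 3.10% lower. Against both fibroblast types at once, none of 14 skeletal transcription factors was called. Meox1, a homeobox gene of somite and fibroblast development, had UMIs in 7 of 24 and 10 of 61 cells, at 91.0 against 3.23 CPM and 55.3 against 8.82 CPM, and Meox2 in 10 and 39 cells. Of 16 genes of collagen processing and crosslinking, Lox, Plod1 and Plod2 were higher and none lower, beside the same 1.59% and 3.10%. Only Lox of 13 was higher against both fibroblast types at once, and none was lower, beside 1.13% higher over all genes tested.

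Between conditions, 581 of 5426 genes tested (10.7%) were at least 2-fold higher in callus than in intact Thbs4/Cilp fibroblasts and 342 (6.30%) were at least 2-fold lower, with a median log2 ratio of 0.05 over all of them. With 24 intact cells holding 186804 UMIs against 596277 in the 61 callus cells, many of these genes rested on few UMIs: with a minimum of 50 UMIs in place of 20, 202 were higher and 107 lower. Of the 581, 96 were also at least 2-fold higher in the other stromal cells of the callus, 479 differed there by less than 2-fold and 6 differed by at least 2-fold the other way. Of the 342, the numbers were 18, 312 and 12. Over all 5426 genes tested, 217 were at least 2-fold higher and 43 at least 2-fold lower in the other stromal cells of the callus. The numbers above are to be read beside these. All 30 genes named for this comparison stayed past 2-fold in each of the 15 settings that gave a value.

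Of the 15 genes named as higher in the callus, periostin (Postn), a matricellular protein of periosteum and healing tissue, had UMIs in 6 of 24 intact cells (lowest 0, median 0, highest 9) and 48 of 61 callus cells (0, 6 and 136), at 134 CPM (interval 86.6 to 198) and 1685 CPM (1583 to 1793), a 12.6-fold difference. In the other stromal cells it stood at 693 and 1012 CPM, so that Thbs4/Cilp fibroblasts were below the other stromal cells in the intact library and above them in the callus. Asporin (Aspn), a leucine-rich proteoglycan that binds collagen and TGF-beta, was detected in 16 of 24 and 56 of 61 cells (medians 1.5 and 9 UMIs, highest 11 and 117), at 289 and 1927 CPM, against 308 and 393 CPM in the other stromal cells. C1qtnf3, a secreted protein of the C1q and TNF-related family, was detected in 3 of 24 and 44 of 61 cells (highest 2 and 77 UMIs), at 32.1 and 632 CPM. The other stromal cells held 1 and 42 C1qtnf3 UMIs, and 29 of the 42 lay in 1 cell just outside the rule, with 3 Thbs4 and 24 Fmod UMIs. The groups of cells overlapped for all of these genes at the low end, since some callus cells had no UMI of each.

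Egfl6, a secreted EGF-repeat protein, was detected in 4 of 24 intact cells (6 UMIs, highest 2) and 24 of 61 callus cells (203 UMIs, highest 31), at 32.1 and 340 CPM. No other stromal cell of either library held an Egfl6 UMI, so that the level was at least 19.9-fold higher in the intact and at least 154-fold higher in the callus Thbs4/Cilp fibroblasts, against a floor of 3 counts over each group. The share of B-lineage cells with an Egfl6 UMI was 5.61% in the intact and 4.39% in the callus library. In the callus, 14 cells held both Egfl6 and Fmod, 10 Egfl6 alone, 8 Fmod alone and 29 neither, and 20 of the 24 cells with Egfl6 held C1qtnf3. Hemicentin 1 (Hmcn1) had 3 UMIs in 2 intact cells and 109 in 30 callus cells, and Ddah1, which degrades an inhibitor of nitric oxide synthases, had 0 and 75 UMIs, a level at least 7.83-fold higher in the callus.

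Of the other named genes, the transcription factor genes Runx1 and Sox4 stood at 21.4 and 161 CPM and at 32.1 and 238 CPM in intact and callus Thbs4/Cilp fibroblasts, and the nuclear receptor gene Nr4a2 at 16.1 and 253 CPM. Runx1 was likewise higher in the other stromal cells of the callus, at 8.08 and 176 CPM, though the make-up of those cells differed between the libraries as given above. The transcriptional regulator gene Sbno2 had 1 and 79 UMIs, and the kinase gene Stk17b 0 and 153, with 8 and 57 in the other stromal cells. Camk1d and Adcy7, which encode a calcium-dependent kinase and an adenylyl cyclase, had 2 UMIs each in the intact and 52 and 50 in the callus cells, and Sh3pxd2a and Epha3, which encode a podosome scaffold and an ephrin receptor, had 2 and 3 in the intact and 48 and 60 in the callus cells. Adcy7 and Camk1d were not higher in the other stromal cells of the callus, where their ratios were 0.691 and 0.687.

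**Figure D5:**
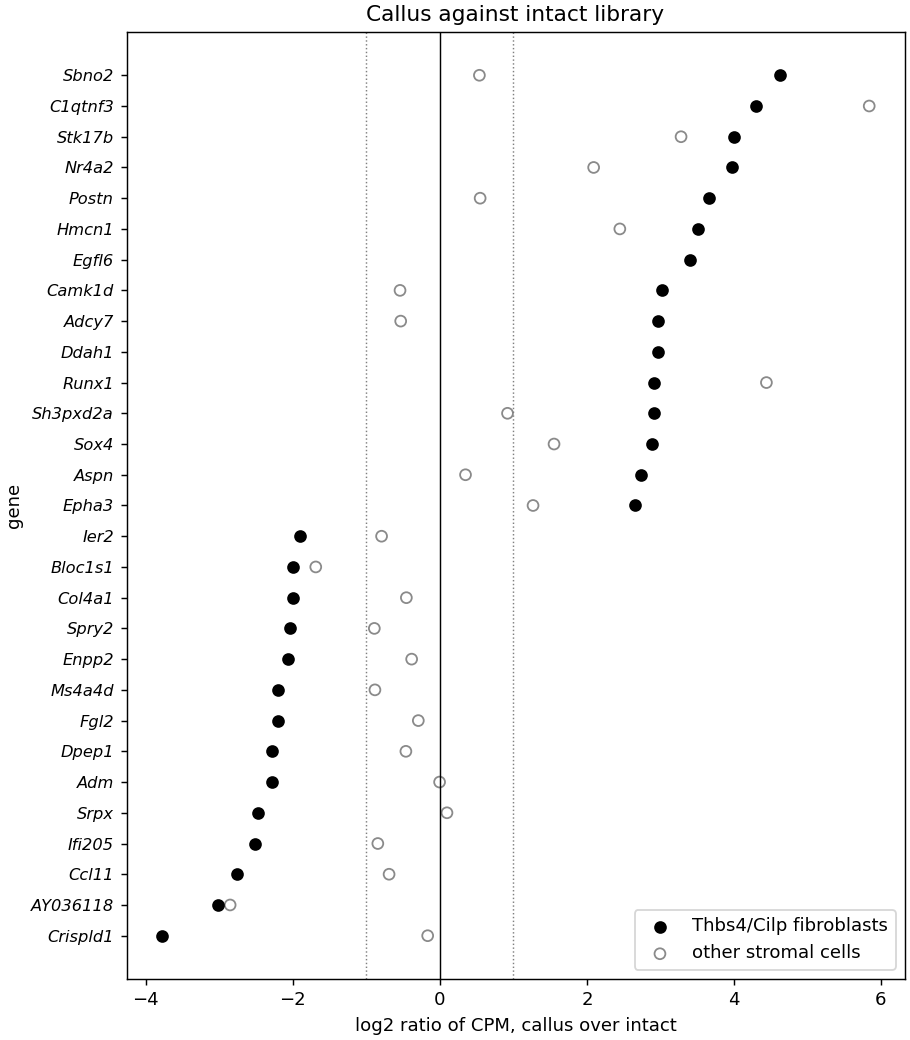
Log2 ratio of CPM in callus over intact for 29 named genes, in Thbs4/Cilp fibroblasts (filled) and in the other stromal cells (open; none for Egfl6 and Ddah1, with at most 2 UMIs there), with dotted lines at 2-fold. Postn, Aspn and Sbno2 lay past 2-fold in the filled points and under it in the open ones, Runx1 was higher in both kinds of cell, the open point of C1qtnf3 rests on 1 intact UMI and on 1 callus cell with 29 of 42 UMIs, and AY036118 and Bloc1s1 were lower in both to a similar degree.

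On the lower side, AY036118 and the lysosome biogenesis gene Bloc1s1 were lower in the callus to a similar degree in Thbs4/Cilp fibroblasts (ratios 0.124 and 0.251) and in the other stromal cells (0.138 and 0.310). Secreted proteins made up much of the rest. Ccl11, the chemokine eotaxin, was detected in 14 of 24 intact cells (median 4.5, highest 28 UMIs) and 13 of 61 callus cells (median 0, highest 15), at 851 CPM (interval 724 to 994) and 126 CPM (98.9 to 158), against 745 and 462 CPM in the other stromal cells. Crispld1, a secreted cysteine-rich protein, was detected in 11 of 24 and 9 of 61 cells, at 300 and 21.8 CPM, against 54.4 and 48.5 CPM in the other stromal cells. Autotaxin (Enpp2), which makes lysophosphatidic acid, stood at 273 and 65.4 CPM, adrenomedullin (Adm), a vasodilator peptide, at 262 and 53.7 CPM, and Fgl2, a fibrinogen-like protein, at 658 and 143 CPM. Col4a1, a chain of basement membrane collagen, stood at 1312 and 327 CPM, against 633 and 462 CPM in the other stromal cells. Srpx, Dpep1, Ms4a4d, Ifi205, the signalling inhibitor gene Spry2 and the immediate-early gene Ier2 had ratios between 0.175 and 0.268.

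Within the Thbs4/Cilp fibroblasts, the Col15a1-type list was lower in the callus and the Pi16-type list stood close to the background. Of 14 Col15a1-type genes, 10 were at least 2-fold lower in the callus cells and none higher, beside 6.30% lower and 10.7% higher over all genes tested, with a median log2 ratio of −1.76 against −0.49 in the other stromal cells. Cxcl14, a chemokine gene of this state, stood at 760 and 111 CPM in intact and callus cells, Smoc2, a calcium-binding matrix protein, at 1943 and 797 CPM, and Penk, the opioid peptide precursor, at 310 and 52.0 CPM. Of 12 Pi16-type genes tested, 1 (Cd55) was higher and none lower, with a median of −0.01. Of 13 genes of myofibroblasts and activated fibroblasts, 8 were higher in the callus (Lrrc15, Cthrc1, Postn, Col8a1, Ddah1, Fn1, Timp1, Aspn) and none lower, with a median of 1.50 against 0.60 in the other stromal cells. The contractile gene Acta2, which defines myofibroblasts, had 0 UMIs in the intact and 7 UMIs in the callus Thbs4/Cilp fibroblasts. Cthrc1, a secreted protein of activated fibroblasts, had 1 UMI in 24 intact cells and 185 UMIs in 26 of 61 callus cells.

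Among matrix lists, and beside the same 10.7% higher and 6.30% lower over all genes tested, the fibrillar and associated collagens had Col1a1, Col3a1, Col8a1 and Col14a1 of 15 higher in the callus and none lower. Col1a1 had UMIs in every Thbs4/Cilp fibroblast (medians 20 and 57 per cell), at 4593 and 10368 CPM, and its ratio of 2.26 was close to the 2.28 of the other stromal cells; Col3a1 stood at 7045 and 17198 CPM, with a ratio of 2.44 against 1.28. Of 19 matricellular genes, 9 were higher and 3 lower, among them Ccn3, at 236 and 1347 CPM (5.72-fold) against 247 CPM in the other stromal cells of both libraries. Of 20 matrix proteases and inhibitors, 9 were higher and 2 lower. Gelatinase A (Mmp2) stood at 814 and 1800 CPM and cathepsin K (Ctsk), a collagen-degrading protease, at 268 and 584 CPM, while all 39 Mmp13 UMIs of the callus cells lay in 1 cell. The basement membrane list had 4 of 14 genes lower (Col4a1, Col4a2, Lama2, Nid2) and none higher, and the Wnt antagonists had Sfrp4, Dkk3 and Wif1 of 6 higher and Sfrp2 and Dkk2 lower. For Wif1, 3 callus cells held all 55 UMIs. Of the leucine-rich proteoglycans, Aspn, Kera and Chad of 11 were higher and Podn lower, while Fmod (ratio 1.40) and Bgn (1.73) stayed under 2-fold. Of 24 BMP and TGF-beta genes, 3 were higher (Tgfb3, Tgfbr1, Inhba) and Bmp2, Bmp4 and Fst were among the lower.

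Transcripts of other cells were measured in the same cells. The red cell list summed to 1076 CPM in intact and 13801 CPM in callus Thbs4/Cilp fibroblasts, and 1 callus cell held 4903 of the 4959 Hbb-bs UMIs, the list's most abundant gene; without that cell the haemoglobin genes stood at 165 CPM in the callus, against 1065 CPM in the intact cells. The muscle fibre list summed to 391 and 525 CPM, with Tpm1 the most abundant, and no Thbs4/Cilp fibroblast held 50 or more UMIs of it, whereas 8 of the other stromal cells in the callus did. Beside 10.7% higher and 6.30% lower over all genes tested, of 7 muscle fibre genes Acta1, Mylpf and Tpm2 were at least 2-fold higher in callus than in intact Thbs4/Cilp fibroblasts and none was lower, with a median log2 ratio of 0.63 against 2.13 in the other stromal cells. Of the haematopoietic list, all 3 genes tested, the neutrophil genes S100a8, S100a9 and Camp, were higher in the callus, beside the same 10.7%, with a median of 1.35 against 0.75 in the other stromal cells. S100a8 stood at 48.2 and 114 CPM and S100a9 at 37.5 and 95.6 CPM, while Camp had 2 and 19 UMIs. The endothelial list summed to 166 and 70.4 CPM, with Tek the most abundant gene (16 of 31 and 19 of 42 UMIs) and Cdh5, Emcn and Vwf at 0, and the Schwann cell list to 391 and 342 CPM, mostly Pmp22, with Sox10 at 0. The part of red cell transcripts in the other differences was not tested beyond leaving that cell out, and the part of muscle and haematopoietic transcripts was not tested. Mitotic genes were seen in few cells: any of 8 had a UMI in 1 of 24 intact and 7 of 61 callus Thbs4/Cilp fibroblasts, against 12 of 263 and 13 of 169 other stromal cells, and the shares were not compared at level depth.

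Cells outside the stromal rule were searched for Thbs4 and Cilp as well. No cell that passed the filter with fewer than 3 of the stromal genes held 5 or more Thbs4 and Cilp UMIs (0 of 916 intact and 0 of 3025 callus cells), and none of the cells removed for Bglap did (1 and 19). In the callus, 4 of 21 Ptprc-positive cells with 3 stromal genes (19.0%, interval 5.45% to 41.9%, which includes the 26.5% of the stromal cells) and 2 of 19 cells outside the cell filter reached 5 UMIs, and in the intact library none of 3 and none of 7 did.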

How the data were processed

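Both libraries were deposited as raw UMI counts per gene and barcode; per the file headers the authors made them with Cell Ranger 6.0.0, and the submitters' processing notes name the mm10 build. Nothing was normalized before deposit, and 32158 of the 32285 gene IDs matched the GENCODE M21 annotation used for coordinates. From the counts, cells were selected by the rule stated above, and UMIs were summed over each group of cells and divided by the group's total to give CPM. In ratios, a group at 0 entered with 3 counts. The members, gene lists and comparisons were chosen with earlier results of these data known, and none of the lists is independent evidence. The 15 highest and 10 lowest genes against other stromal cells, and 15 each way for callus against intact, were named among genes past 2-fold holding 50 or more UMIs over both groups, a UMI in at least 25% of cells of the higher group and no cell with over 25% of its UMIs. Some genes of these sets and lists are not reported here. Also named are the markers of the group and genes of 35 lists; other genes of the lists and the 23 genes plotted across 3 groups were picked after their values were seen. Exact Poisson intervals (CPM) and Clopper-Pearson intervals (shares) cover counting error, at 95%. Depth per library sets the precision given. B-lineage cells were those with at least 3 Cd79a and Cd79b UMIs and a Ptprc UMI. Doublets were scored with Scrublet and not removed in the values given. The procedure was tested on simulated data. Python 3.11.15 with numpy 2.4.6, scipy 1.17.1, pandas 2.3.3, scanpy 1.11.5 and matplotlib 3.10.9 was used. In all, 13 alternatives were planned and 2 added after seeing the data.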

Additional observations from a re-analysis of the deposited data

Results flagged for a closer look

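For a pair of the named genes, Thbs4/Cilp fibroblasts differed from the other stromal cells in opposite directions in the libraries, by at least 2-fold each way; the difference between libraries was not tested, since each condition has 1 library. Adcy7, an adenylyl cyclase gene, had a ratio of Thbs4/Cilp fibroblasts over other stromal cells of 0.265 in the intact library and 3.00 in the callus, and the intact value rests on 2 UMIs against 75, with an exact counting interval of the ratio from 0.0315 to 0.991; the callus interval was 1.93 to 4.70. Crispld1 had a ratio of 5.51 in the intact library and 0.449 in the callus, on 56 and 13 UMIs in the Thbs4/Cilp fibroblasts.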

How the results depend on the processing

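The share of Thbs4/Cilp fibroblasts among stromal cells stayed within the interval of its main value in 17 of 18 alternative values. With at least 10 Thbs4 and Cilp UMIs in place of 5, the intact share was 5.23%, since the rule admits fewer cells. Of 60 counts of genes past 2-fold, 56 stayed within 1.5 times the main count. With at least 50 UMIs per gene in place of 20, fewer genes were tested and the counts were 75 higher and 157 lower against the other stromal cells (127 and 248 in the main analysis), and 202 higher and 107 lower for callus against intact (581 and 342). Of the ratios of named genes, 1131 of 1200 alternative values stayed close to the main value and 69 moved. The ratios against other stromal cells of Lox, Ccn2, Gas6 and Ptgs2 were under 2-fold in the callus in 1 or 2 settings, with lowest ratios of 1.52 for Lox (no limit on Bglap), 1.47 for Ccn2 (cells thinned for the threshold) and 1.95 for Gas6 (10 or more Thbs4 and Cilp UMIs), and a ratio of 0.545 for Ptgs2, a gene of the lower side, with 3 or more such UMIs; the other 46 of 50 stayed past it in all 15 settings. In the callus, the ratio of Mgp (13.3) was 4.72 with cells thinned for the threshold and that of Pdgfrl (9.84) was 3.68 with no limit on Bglap, while those of Col8a1 (2.95) and Ccn2 (2.45) were 13.3 and 8.62 against stromal cells with a Clec3b UMI, an alternative chosen after seeing the data. Of all 80 ratios of named genes, 33 moved by over 1.5 times in some setting. The intact ratios of Limch1, Has2, Car8, Ptgs2 and Olfml2a, which rest on 1 or 2 UMIs, lay between 0.0220 and 0.0667 and reached between 0.121 and 0.304 in a setting with other limits on Thbs4 and Cilp. The callus over intact ratio of Nr4a2 (15.8), with 3 intact UMIs, was 55.1 with cells thinned for the threshold, and that of Stk17b, with 0 intact UMIs in the main analysis, was 53.0 in that setting. Of 1382 list medians, 1342 stayed close, 38 moved and 2 reversed. Both were the red cell list for callus over intact, at 3.84 in the main analysis, −2.45 without the cells of highest Scrublet score and −2.51 without the callus cell that held at least 100 haemoglobin UMIs, the latter chosen after seeing the data. No paired analysis was possible because each condition has 1 library. Leaving out a replicate was not possible for the same reason. The 24 intact cells limit the depth: the interval of a gene at 0 there reaches 19.7 CPM.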

Other observations

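Of 16 chemokine and inflammation genes tested for callus against intact Thbs4/Cilp fibroblasts, 6 were at least 2-fold higher (Ccl7, Il6, Ptx3, Has1, Tnfaip6, Ptgs2) and 3 lower (Ccl11, Cxcl14, Csf1), beside 10.7% higher and 6.30% lower over all genes tested, with a median log2 ratio of 0.48 against −0.54 in the other stromal cells. Beside the same shares, of 10 tenocyte genes Kera, detected in 3 callus cells, Col11a1, Cilp2 and Comp were higher in the callus and none lower, with a median of 0.29 against 1.66, and of 6 tendon sheath and synovial genes Has1, Cd55 and Thbs1 were higher and none lower, with a median of 0.63 against −0.31.

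Of 8 complement genes tested against the other stromal cells, only Cd55 was lower in both libraries and none was higher, beside 3.10% lower and 1.59% higher over all genes tested. Complement C3 was detected in 12 of 24 intact Thbs4/Cilp fibroblasts and in 16 of 61 callus ones, at 857 and 181 CPM, against 1054 and 1790 CPM in the other stromal cells, so that its callus over intact ratio was 0.211 in the former and 1.70 in the latter. Of 12 adipogenic and lipid genes none was called in both libraries, while for callus against intact Thbs4/Cilp fibroblasts Apod, Gsn and Scd1 of 11 were lower, beside 6.30% of all genes tested. Gelsolin (Gsn), an actin-severing protein, had a median of 168 UMIs per intact and 50 per callus Thbs4/Cilp fibroblast, at 21161 and 7015 CPM, against 13686 and 10347 CPM in the other stromal cells. Apod, a lipid-binding protein, stood at 942 and 345 CPM, against 153 and 200 CPM.

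Of 13 hypoxia and glycolysis genes, Bnip3 was higher and Vegfa lower in Thbs4/Cilp fibroblasts in both libraries, beside 1.59% higher and 3.10% lower over all genes tested; Vegfa, the endothelial growth factor, stood at 42.8 against 165 CPM and 31.9 against 99.2 CPM. Hyaluronan synthase 1 (Has1) stood at 48.2 CPM in intact and 302 CPM in callus Thbs4/Cilp fibroblasts, against 749 and 538 CPM in the other stromal cells. The receptor gene Pdgfra, which is part of the stromal rule, stood at 937 and 404 CPM, against 575 and 402 CPM. Of the mural cell list, Ndufa4l2 and Cspg4 of 5 tested genes were higher in both libraries, beside the same 1.59%, at 85.7 against 8.62 CPM and 77.1 against 3.68 CPM for Ndufa4l2, and the list summed to 380 and 337 CPM with Pdgfrb the most abundant gene and Higd1b at 0; Rgs5 was at 0 in the intact cells. The haematopoietic list summed to 193 and 344 CPM in Thbs4/Cilp fibroblasts, with S100a8 the most abundant gene, Cd79a and Cd79b at 0 and Ptprc at 0 by the rule. The myogenic progenitor list had 0 UMIs in the intact and 9 in the callus Thbs4/Cilp fibroblasts, all of them Chodl, with Pax7, Myf5 and Myod1 at 0. The part of these transcripts in the other differences was not tested.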
